A study of Mus musculus with 44 samples.

Results

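The 24 single cells of plate 3 were ordered by their deposited level of Acta2, the gene of alpha smooth muscle actin. The 6 highest and the 7 lowest cells were chosen by that level and compared over all other listed genes. These 13 cells, of 44 in the series, are called Acta2-high and Acta2-low cells here, and the other 11 cells of plate 3 are called the cells between. All 24 came from neonatal calvarial cells of C57BL/6J mice, kept for 16 h in A-MEM with 10% FBS and 1% Penstrep, and are labelled as cultured without megakaryocytes, although their titles name megakaryocytes as well. The other 20 cells of the series, from plate 7, are labelled as cultured with 50000 megakaryocytes, so that plate and treatment cannot be told apart. Cells were sorted as positive for CD45 and F4/80 and negative for CD41, the phenotype of bone-surface macrophages termed osteomacs, and captured singly on a Fluidigm chip. The labels tie no cell to a culture or animal. The 24 cells therefore count as 1 sample: no test was made between the sets, and every value below describes these cells only. Because Acta2 chose the sets, its own values are a description.

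Alpha smooth muscle actin is an actin isoform of smooth muscle, pericytes and myofibroblasts, the contractile cells that connective tissue forms during repair. There it joins stress fibres, bundles of actin and myosin that pull on the matrix through focal adhesions, where integrins meet proteins such as vinculin and talin. Its transcription depends on serum response factor, which binds short A- and T-rich elements called CArG boxes and is driven by myocardin-related factors that respond to the actin pool, and it is induced by transforming growth factor beta. In the calvaria, mesenchymal cells of the sutures and bone surface that express Acta2 include precursors of osteoblasts.

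CArG boxes near the Acta2 start and near that of Vcl, the gene of vinculin, are shown because both genes are textbook targets of serum response factor and Vcl had the largest difference in the contractile list below. Each sequence is 30 bases of the RefSeq promoter table (GRCm38.p6), 5′ to 3′ on the gene's strand, with the box in capitals. A CArG box here is a pair of C, 6 bases of A or T and a pair of G, searched on both strands of the palindromic form, and a looser form allowed 1 G or C among the 6 central bases.
Acta2, first box, chr19:34255438-34255467, minus strand: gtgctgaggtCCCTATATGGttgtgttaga
Acta2, other box, chr19:34255388-34255417, minus strand: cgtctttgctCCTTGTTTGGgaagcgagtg
Vcl, chr14:20929161-20929190, plus strand: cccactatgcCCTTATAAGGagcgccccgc
Both Acta2 boxes were of the looser form and ended 75 and 25 bases before the start base of that table. They lay within the span of the longer GENCODE M21 model of Acta2 (chr19:34241090-34255590). The Vcl box was of the strict form and ended 218 bases before the start. The strict form was in 1.63% of all 32851 promoters of 300 bases, in 2.38% of the 252 matched promoters of genes higher in Acta2-high cells and in 1.06% of the 188 of genes lower, and the looser form in 9.98%, 9.13% and 11.2%. A match is a string of letters and not a shown binding site.

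Levels are given as CPM, reads of the gene per 1000000 library reads of the cell, which were worked out from the deposited values. The deposited table allows a comparison of cells within a gene and not of genes with each other. Acta2 stood at 1223, 1312, 1673, 1946, 2108 and 2884 CPM in the Acta2-high cells, which bear the numbers 8, 12, 5, 21, 15 and 10. It was at 0 in 4 of the 7 Acta2-low cells (cells 9, 14, 19 and 20) and at 1.89, 3.70 and 4.20 CPM in the others (cells 1, 18 and 2). In reads, 6406 in the high set faced 5 in the low set, with exact Poisson 95% intervals of 6250 to 6565 and 1.62 to 11.7. These cover counting error only and take reads as independent, although without molecular identifiers they do not stand for independent molecules. The cells between ran from 65.2 to 710 CPM. The highest of them (cell 16) lay 1.72-fold below the lowest Acta2-high cell, and the lowest (cell 11) 15.5-fold above the highest Acta2-low cell. The upper edge of the comparison therefore cut through a run of similar cells, whereas the lower edge fell in a wide gap. Of the 20 plate-7 cells, 2 had an Acta2 read, 1 each.

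**Figure D1:**
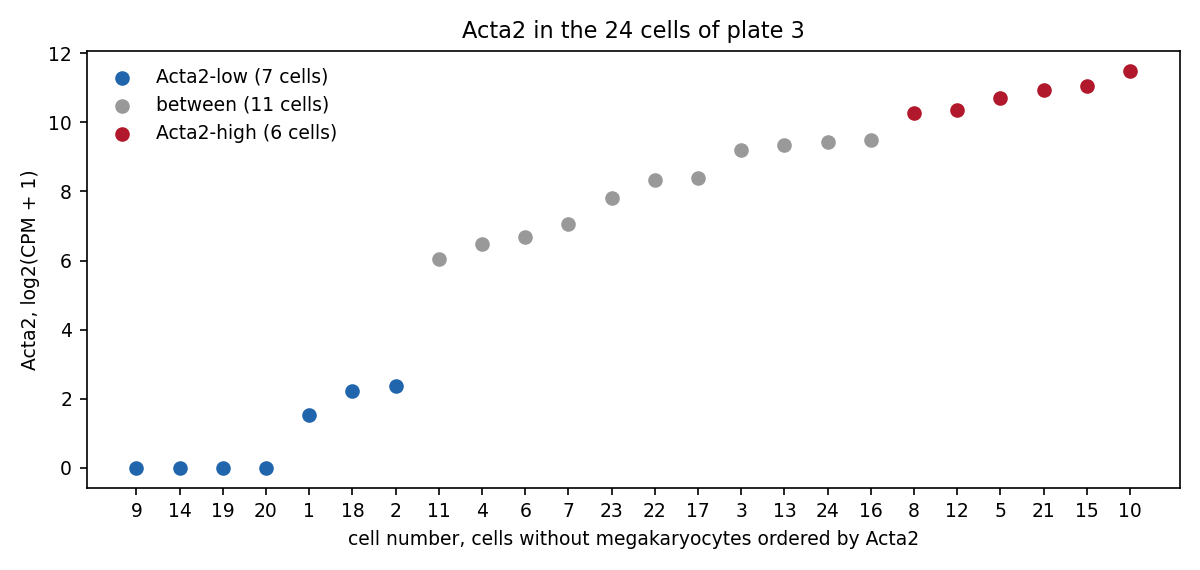
Acta2 level as log2(CPM + 1) in each of the 24 plate-3 cells, ordered from lowest to highest, with the 7 Acta2-low cells in blue, the 11 cells between in grey and the 6 Acta2-high cells in red. The low set ends at 4.20 CPM and the next cell is at 65.2 CPM, while 710 CPM and 1223 CPM adjoin at the upper edge.

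Depth differed little between the sets. Library reads had a median of 615176 (439621 to 697872) in Acta2-high and 529970 (270537 to 714465) in Acta2-low cells, and genes with a read numbered 2598 (2092 to 2726) and 2397 (1946 to 2718). The listed genes took 64.0% and 63.9% of the reads. The sort label was not borne out by either set. Ptprc, which encodes CD45, had 0 reads in all 13 cells and Adgre1, which encodes F4/80, had 1 read, in an Acta2-high cell. Of 28 listed macrophage and leukocyte markers, Lgals3 and Cd68 aside, 10 were at 0 reads in both sets, and their sum per cell ran from 0 to 317 CPM in Acta2-high and from 9.43 to 97.6 CPM in Acta2-low cells, against 12813 to 66496 CPM in plate-7 cells. Sparc, a matrix protein gene of bone and connective tissue, was at 1992 to 7047 CPM in Acta2-high cells and at 2237 to 11169 CPM in 6 of the 7 Acta2-low cells. The sets are therefore named by Acta2 alone here. No gene of the lists of pericyte and smooth muscle, endothelial, or chondrocyte and tendon markers was among the 3613 listed, so those identities could not be checked. A pair of cells stood apart. Acta2-high cell 21 had the highest marker sum, 317 CPM, and low levels of metabolic genes, and Acta2-low cell 14 had Sparc at 38.03 CPM. The marker sum of cell 21 came almost wholly from Cd74, which had 213 reads over the high set.

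Genes were tested where 7 or more of the 13 cells had a read. A gene read in all 6 Acta2-high cells alone could thus not be tested, whereas one read in all 7 Acta2-low cells alone could. The counts by direction and the rankings of differences below hold for tested genes only. Of the 2562 genes tested, 310 (12.1%) were higher and 240 (9.37%) lower in Acta2-high cells, 550 (21.5%) in all. A gene counts as higher or lower where the means of log2(CPM + 1) differed by at least 1 and the pooled reads by at least 2-fold the same way. All differences below are of those means, Acta2-high minus Acta2-low. Their median over the tested genes was 0.23, and the median log2 ratio of pooled reads was −0.03. Without cells 21 and 14 the counts were 285 and 218. How many genes would pass between any other 6 and 7 of these cells was not tested. Values of the sets did not overlap for 2 higher genes (0.0781%) and for 0 lower genes (0%). One of these, Cnot3, a subunit of the CCR4-NOT deadenylase, rested on 8 reads against 2 and thus on levels near that of 1 read.

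Most actin-binding and contractile genes had a higher mean in the Acta2-high cells, while few passed 2-fold. Of 41 genes on the contractile list, 15 were listed and tested. Of these 13 had a difference above 0, as did 58.4% of all tested genes, and the median was 0.89 beside 0.23. Past 2-fold were 3 of 15, Vcl, Cald1 and Actn4, and 0 were lower, beside backgrounds of 12.1% and 9.37%. The members that carry the name of smooth muscle, among them Tagln, Myh11 and Cnn1, were not among the genes listed.

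Vcl had 247, 837 and 2879 CPM as its lowest, median and highest Acta2-high values and 2.38, 226 and 614 CPM in Acta2-low cells, a difference of 3.47 and a 4.63-fold pooled ratio. Acta2-high cell 5 alone lay within the range of the low set, which split into 4 cells from 226 CPM upwards and 3 cells at or below 24.7 CPM. Cald1, which encodes the actin- and myosin-binding protein caldesmon, had 936, 1697 and 2447 CPM against 74.2, 797 and 1953 CPM (difference 1.49). Its pooled ratio of 2.21-fold passed 2-fold by little, and the call ended without Acta2-low cell 14 or cell 20 and on the deposited values. Actn4, an actin crosslinker of the alpha-actinin family, lay at 431 to 792 CPM in 5 Acta2-high cells and at 4.30 CPM in cell 21, against 30.8, 119 and 564 CPM (difference 1.17). Its call ended on leaving out any 1 of 6 cells.

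The crosslinker filamin A (Flna) had a difference of 1.58 with a pooled ratio of 1.98-fold, just short of the threshold. Smaller differences were found for Ilk (1.36), Tln1 (1.30), Tpm1 (0.99), Tpm4 (0.89) and Actn1 (0.83), which encode integrin-linked kinase, talin, a pair of tropomyosins and alpha-actinin 1. Tpm1, which winds along actin filaments, had 901, 2917 and 3358 CPM against 207, 1205 and 2887 CPM, and 4 of the 6 Acta2-high cells stood at or above 2698 CPM. Pdlim5 (−0.84) and Msn (−0.26) leaned the other way. Actb, the cytoplasmic beta-actin, took 2.93%, 3.57% and 5.52% of reads in Acta2-high and 1.56%, 2.94% and 3.54% in Acta2-low cells, a difference of 0.56.

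Lists of the regulatory pathways around this programme, targets included, showed no common direction. Their counts are set beside the backgrounds of 12.1% higher and 9.37% lower. Of 6 tested genes on the list of serum response factor, its cofactors and targets, Fos and Vcl were higher (median 0.76). Srf itself was not among them, and Vcl is on the contractile list as well. The cofactor gene Mkl2 differed by 0.97 and was not called. Fos, an immediate early transcription factor, was at 116 CPM in the median Acta2-high cell and 1.90 CPM in the median Acta2-low cell, with cells at 0 in both sets (difference 3.12). Of 6 transforming growth factor beta and BMP signalling genes 0 passed in either direction (median −0.09). Ltbp1, which tethers latent TGF-beta to the matrix, differed by −3.69 in mean but its pooled reads by only 1.93-fold. Of 5 TAZ and YAP pathway genes 1 was lower, the kinase gene Stk4, and the median was −0.32, or 0.58 without cells 21 and 14. The call of Stk4 ended on leaving out any 1 of 6 cells, after thinning, on the deposited values and with a pseudocount of 10. Wwtr1, which encodes TAZ, had 4.30, 102 and 256 CPM against 4.57, 134.9 and 664 CPM (difference −0.77).

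**Figure D2:**
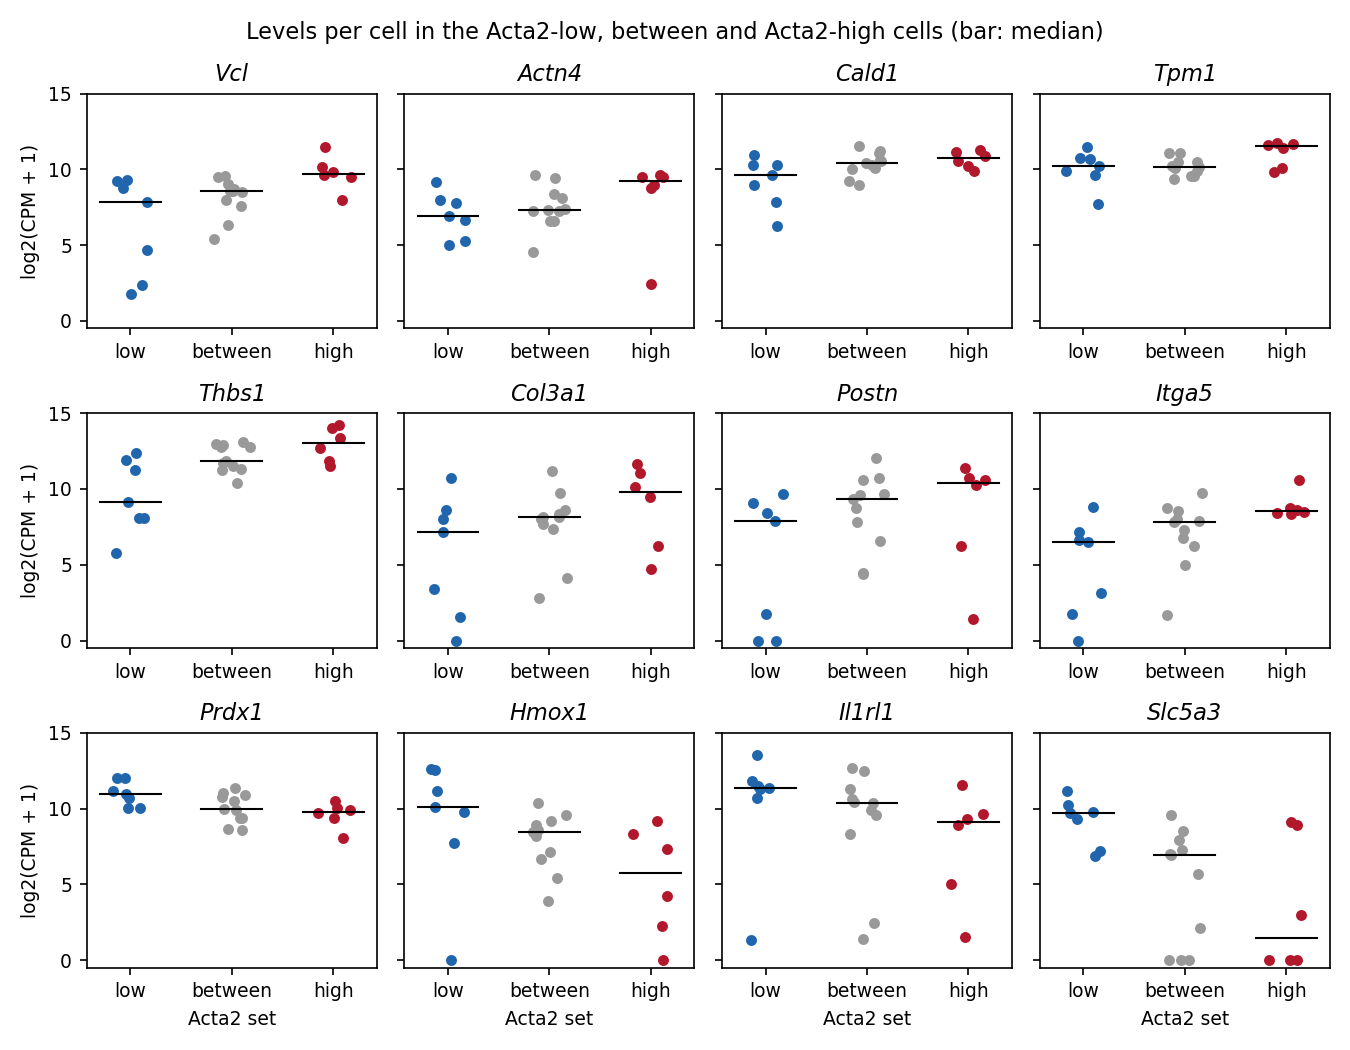
Levels of 12 genes as log2(CPM + 1) in each cell of the Acta2-low (blue, 7 cells), between (grey, 11 cells) and Acta2-high (red, 6 cells) sets, with the median as a bar; points are spread sideways for visibility only. Thbs1 is at 2922 CPM or more in every Acta2-high cell, whereas Slc5a3 is at 119 CPM or more in every Acta2-low cell, and the 2 outer sets overlap in each panel.

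Genes of the extracellular matrix had the highest list median in differences of means, though not in pooled ratios. There the chemokine list led with 0.89, and the metalloprotease (0.74) and serum response factor (0.72) lists also stood above the matrix list. Of 52 genes on the collagen, elastic fibre and matrix list, 15 were listed and 12 tested. Thbs1, Col3a1, Postn, Lamb1 and Lox were higher, 5 of 12 beside the background of 12.1%, and 0 were lower. The median difference was 1.89, and that of the log2 pooled ratio 0.63. Over the 21 alternatives the median difference stayed between 1.40 and 2.24.

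Thbs1 encodes thrombospondin 1, a matricellular protein that can release active TGF-beta. It had 2922, 8625 and 19197 CPM in Acta2-high and 54.8, 554 and 5210 CPM in Acta2-low cells, a difference of 3.43 and a 4.98-fold pooled ratio. Acta2-low cells 14, 19 and 1, at 2438 to 5210 CPM, made up the upper part of the low set, and the other 4 were at or below 554 CPM. Col3a1, which encodes the fibrillar collagen III of soft connective tissue, had 24.98, 931 and 3221 CPM against 0, 141.6 and 1672 CPM (difference 3.26). Postn, which encodes periostin, a matrix protein named for the periosteum, had 1.62, 1369 and 2616 CPM against 0, 233 and 816 CPM (difference 3.17). It was at 1228 CPM or more in 4 Acta2-high cells, above all Acta2-low cells, but cells 8 and 21 of the high set were at 1.62 and 75.9 CPM.

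Lamb1, a laminin chain of basement membranes, differed by 2.37 and Lox, whose product crosslinks collagen and elastin fibres, by 1.58. Mfap5 and Fbln2, both of elastic microfibrils, had differences of 2.84 and 2.20 but did not pass on pooled reads. For Mfap5 the pooled ratio ran the other way, at 0.904-fold, and 1 Acta2-low cell stood at 13246 CPM. Col1a2, a chain of collagen I, differed by −0.48, the proteoglycan gene Bgn by −1.07, Mgp by 0.07 and Sparc by 0.78.

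Among the listed adhesion genes, Itga5, the alpha 5 chain of the fibronectin receptor, had the largest difference. It lay between 321 and 426 CPM in 5 Acta2-high cells and at 1532 CPM in cell 5. In Acta2-low cells it had 0, 88.7 and 453 CPM, and only cell 19 of that set reached the range of the high cells. The difference was 4.01 and the pooled ratio 4.52-fold. Of the 10 tested focal adhesion and integrin genes, Itga5 and Vcl were higher and Lims1, a partner of integrin-linked kinase, was lower (−1.52). These counts stand beside backgrounds of 12.1% higher and 9.37% lower. The call of Lims1 ended without Acta2-high cell 12 or 21 or Acta2-low cell 19, after thinning and with a pseudocount of 10. The list's median was 0.81. The beta 1 chain that pairs with alpha 5, Itgb1, differed by −0.41 and Cav1, the caveolar coat gene, by −1.33.

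Of 8 tested metalloproteases and inhibitors of matrix breakdown, Mmp14, Adam17 and Timp3 were higher, beside the background of 12.1%, and 0 lower. The list's median was 1.46, and 0.61 without Acta2-low cell 18. Mmp14, a membrane-bound collagenase that also activates MMP2, had 0, 207 and 334 CPM against 0, 0 and 211 CPM (difference 3.09), with a read in 5 of 6 and 3 of 7 cells. Timp3, an inhibitor bound to the matrix, was split within both sets: 3 Acta2-high cells were at 2748 CPM or more and the other 3 at or below 62.1 CPM (difference 1.98). Its call ended without Acta2-high cell 8 or Acta2-low cell 9. The sheddase gene Adam12 had 96.0 CPM or more in all Acta2-high cells, but its pooled ratio of 1.93-fold did not pass. Timp1 (−0.36) and Timp2 (−0.84) did not share the direction.

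Chemokine and cytokine genes went both ways: of 6 tested, 3 had a difference above 0 and 3 below, with a median of 0.13. Ccl7 and Ccl2 were higher and the receptor gene Il1rl1 lower, beside backgrounds of 12.1% higher and 9.37% lower. The tested gene with the highest difference was Ccl7, at 5.51, a chemokine that draws monocytes. Ccl7 had 121.1, 743 and 3873 CPM in Acta2-high cells, while 4 Acta2-low cells were at 0 and the other 3 at 102, 292 and 2537 CPM. Its neighbour Ccl2, of the same function, had 3.84, 1014 and 14493 CPM against 1.52, 70.0 and 5983 CPM (difference 2.14). The genes lie side by side, Ccl2 at chr11:82035571-82037453 and Ccl7 at chr11:82045712-82047525 (mm10, plus strand). Acta2-low cell 9 was high for both, and most Ccl2 reads of the high set came from cells 15 and 21. The call of Ccl7 ended without cell 21 and that of Ccl2 without cell 15.

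**Figure D3:**
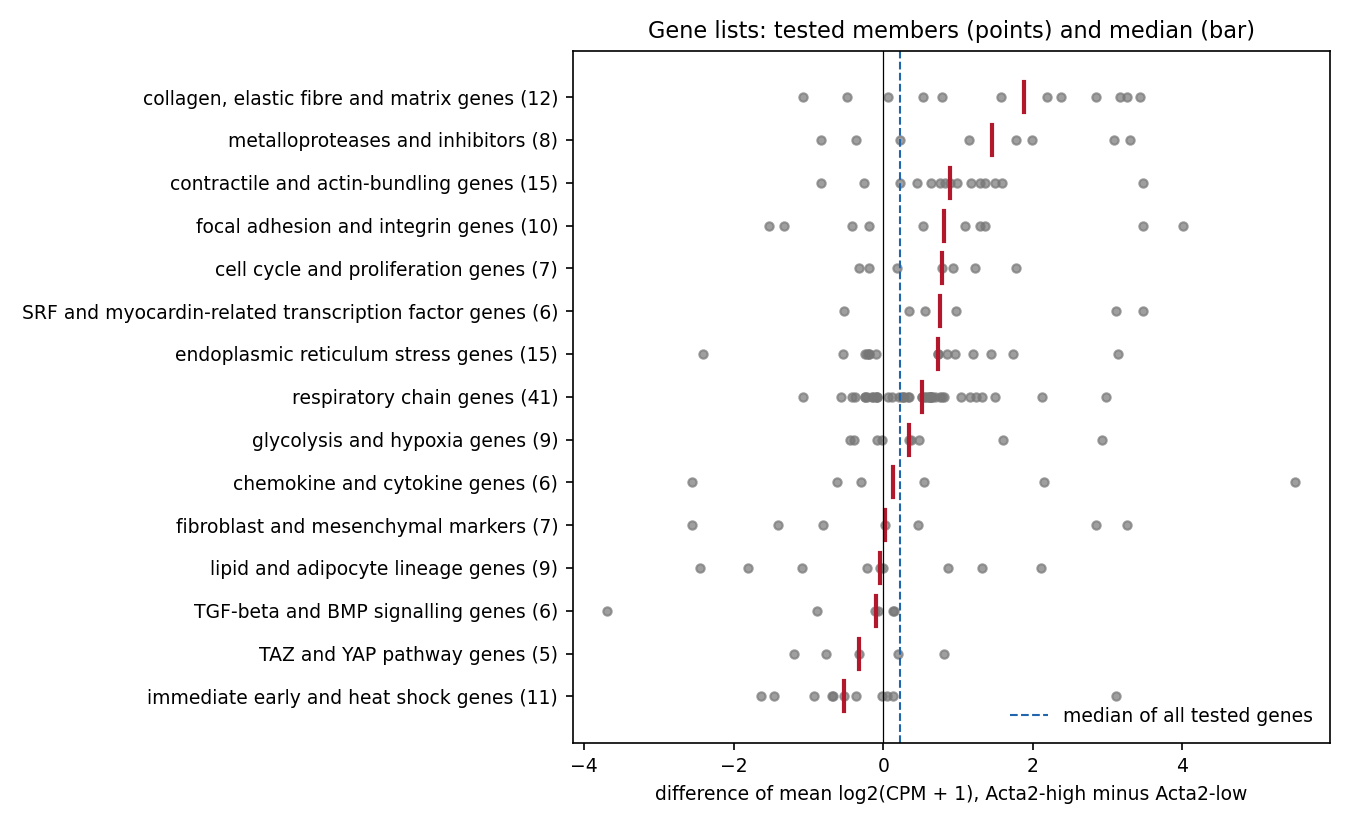
Difference of mean log2(CPM + 1), Acta2-high minus Acta2-low, for each tested member (points) and the median (bar) of the gene lists described here with at least 5 tested members, whose number is in brackets; the dashed line is the median of all 2562 tested genes, 0.23. The matrix list has its median at 1.89 and the immediate early list at −0.52.

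The other leading higher genes belonged to no list. Ctr9, a scaffold of the PAF1 transcription elongation complex, had 41.6, 80.9 and 327 CPM in Acta2-high cells and a read in only 2 of 7 Acta2-low cells, at 25.9 and 53.2 CPM (difference 5.18). Mettl9, a histidine methyltransferase gene, had 42.4, 106 and 273 CPM against 0, 1.89 and 58.8 CPM (difference 4.44). Nucb1, a calcium-binding protein of the Golgi, had 18.6, 81.5 and 413 CPM against 0, 3.37 and 20.8 CPM, a 19.3-fold pooled ratio. In each of these genes 1 Acta2-low cell exceeded the lowest Acta2-high cell. Slc38a4, an amino acid transporter gene, was at 56.7 CPM or more in 5 Acta2-high cells, at 0 in cell 21 and at most at 22.9 CPM in the low set (difference 3.96, 23.2-fold pooled). The remaining members of the highest 12 were Rab35 (4.74), Brd8 (4.46), Acat1 (4.29), Tspan4 (4.23), Rnft1 (4.09) and Actr1a (4.03), which act in endosome recycling, chromatin acetylation, mitochondrial ketone and isoleucine breakdown, cell membranes, protein ubiquitination and dynein-based transport. Rab35 had a read in 1 Acta2-low cell.

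The lowest difference among tested genes, −5.99, was that of Ice1, a scaffold of the little elongation complex. It had 1 read in Acta2-high cells and 630 in Acta2-low cells. The pooled ratio, high over low, was 0.00167 (exact binomial 95% interval 4.23e-05 to 0.00937, counting error only, with reads taken as independent). The cells between were at 0 in the median, however, with a read in only 3 of 11. Slc5a3, a sodium-coupled myo-inositol transporter gene, was at 119, 855 and 2250 CPM in Acta2-low cells. In Acta2-high cells it was at 0 in 3 cells, at 6.82 CPM in cell 10 and at 483 and 564 CPM in cells 15 and 8 (difference −5.68). The cells between had a median of 123.8 CPM. Map1s, a microtubule-associated protein gene, had a read in all 7 Acta2-low cells, from 1.40 to 221 CPM, and in 1 of 6 Acta2-high cells, at 5.73 CPM (difference −4.10).

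A pair of the lowest genes encodes antioxidant enzymes. Hmox1, which encodes heme oxygenase 1, had 0, 1117 and 6322 CPM in Acta2-low and 0, 89.7 and 580 CPM in Acta2-high cells (difference −3.92), and cells 9, 14 and 2 of the low set were at 2314 CPM or more. Srxn1, which encodes sulfiredoxin, had 0, 167 and 4135 CPM against 0, 3.24 and 99.5 CPM (difference −4.40). Predicted genes with Rik names, such as 1810013L24Rik (−3.46), were passed over in this ranking. The remaining members of the lowest 12 were Sdr39u1 (−4.81), Tbk1 (−3.86), Mynn (−3.85), Mllt10 (−3.37), Chmp1a (−3.33), Trove2 (−3.30) and Ccdc115 (−3.22). Of these, TBK1 is a kinase of innate immune signalling and autophagy and CHMP1A a subunit of the membrane-scission complex ESCRT-III. Tbk1 was at most 13.6 CPM in Acta2-high cells and had a median of 128.04 CPM in Acta2-low cells.

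Mesenchymal markers went both ways. Of 7 tested, Col3a1 was higher, Pdpn (podoplanin, difference −1.41) and Il1rl1 lower, beside backgrounds of 12.1% higher and 9.37% lower. The list's median was 0.02. Il1rl1, the receptor of interleukin 33, had 1.52, 2640 and 12054 CPM in Acta2-low and 1.92, 565 and 2991 CPM in Acta2-high cells (difference −2.55). In the low set 6 of 7 cells were at 1698 CPM or more, and in the high set 1 of 6. Vim, the mesenchymal intermediate filament gene, differed by 0.02. Lgals3, a lectin gene of macrophages and other cells, was lower (−2.60), at 1.69, 181 and 880 CPM in Acta2-low against 0, 50.5 and 130 CPM in Acta2-high cells. The part of other cell types in these values was not tested.

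Among 9 tested lipid genes, 2 were higher, with the fatty acid synthase gene Fasn (1.33) among them, beside a background of 12.1%. Plin2 (−2.46), Apoe (−1.81) and Cd36 (−1.09), of lipid droplets and lipid transport and uptake, were lower, beside a background of 9.37%. The lower calls rested on few cells, and that of Apoe ended without Acta2-low cell 2: Plin2 exceeded the highest Acta2-high value, 122.7 CPM, only in cells 19 and 2 of the low set, at 1251 and 595 CPM. Spp1, which encodes osteopontin, was lower too (−1.51), with 9002 CPM in Acta2-low cell 19 and at most 316 CPM in any other cell of both sets, and its call ended without that cell, without Acta2-low cell 14 or without Acta2-high cell 5 or 15. The highest Spp1 levels of the plate were in the cells between, at 33893 CPM in cell 13 and 19682.5 CPM in cell 17. Of the other 2 tested osteoblast lineage genes, Atf4 differed by −0.20.

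The remaining lists are set beside the backgrounds of 12.1% higher and 9.37% lower. Of 41 respiratory chain genes, Sdha and Ndufs7 were higher (median 0.52), and of 15 endoplasmic reticulum stress genes 0 passed (median 0.73). Of 9 glycolysis genes Tpi1 was higher (median 0.34). Of 7 cell cycle genes Cdk2 was higher (median 0.79), a call that ended without Acta2-high cell 10. In pooled reads these lists differed less, with median log2 ratios of 0.09, −0.08, 0.31 and 0.08 in the same order. Of 11 immediate early and heat shock genes, Fos was higher and Dusp1 lower (median −0.52). The call of Dusp1 ended without Acta2-low cell 19, without cells 21 and 14, after thinning and with a pseudocount of 10. It also ended where at least 10 of the 13 cells had to have a read. Of 4 haematopoietic niche factor genes Spp1 was lower (median −0.43, or 0.43 without cells 21 and 14), and of 4 neural and glial genes 0 passed. Over the alternatives, the median differences of the contractile (0.64 to 1.12), serum response factor, matrix, focal adhesion, metalloprotease, respiratory chain and immediate early lists kept their sign. The immediate early list had a median log2 pooled ratio of 0.06, however, the opposite sign to its median difference. The median differences of the other lists described up to this point came to 0 or took both signs.

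The genes whose order over all 24 cells was most like that of Acta2 were Prdx3 and Ctr9 (Spearman correlation 0.67 each), Srp72 (0.65), Mettl9 and Cnot3 (0.64 each), Itga5 (0.63), and Ankrd32 and Nucb1 (0.61 each). Prdx3 encodes the mitochondrial peroxiredoxin and Srp72 a subunit of the signal recognition particle. Prdx3 had 200, 409 and 521 CPM in Acta2-high and 0, 133.2 and 209 CPM in Acta2-low cells. The most opposed were Sdr39u1 (−0.63), Rplp0 (−0.62), Map1s (−0.61) and Oser1 (−0.59). Rplp0, a ribosomal protein gene, differed by −0.49 with a narrow spread, at 544 to 824 CPM in Acta2-high and 631 to 1249 CPM in Acta2-low cells. These correlations include the cells that formed the sets and carry no independent weight.

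The 11 cells between took no part in the contrast and give the same measure in other cells. Their Acta2 level varied from 65.2 to 710 CPM, and all came from the same plate. Over these 11 cells the median Spearman correlation with Acta2 was 0.08 for the 310 higher genes, with 59.7% above 0. For the 240 lower genes it was 0.09, with 59.2% above 0, and for all tested genes 0.03, with 53.0% above 0. The higher and the lower genes were thus alike in these cells. Among named genes, Srp72 (0.71), Tpm1 (0.66), Itga5 (0.57), Mettl9 (0.56) and Ctr9 (0.45) went with Acta2 there, whereas Thbs1 (0.02), Vcl (0.05) and Slc38a4 (0.04) showed almost no relation, Ccl7 (−0.33) and Fos (−0.67) the opposite one, and Srxn1 (0.66) and Sqstm1 (0.72), both lower in Acta2-high cells, a positive one. The median of the contractile list in the cells between was −0.09 and that of the matrix list 0.23. As for level, the mean of the cells between lay between those of the outer sets for 60.3% of the higher and 64.2% of the lower genes, and for 37.8% of all tested genes. The higher and lower genes were chosen for outer means at least 1 apart. Another mean falls inside so wide a gap more often by construction, so these shares cannot show whether levels were graded with Acta2.

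**Figure D4:**
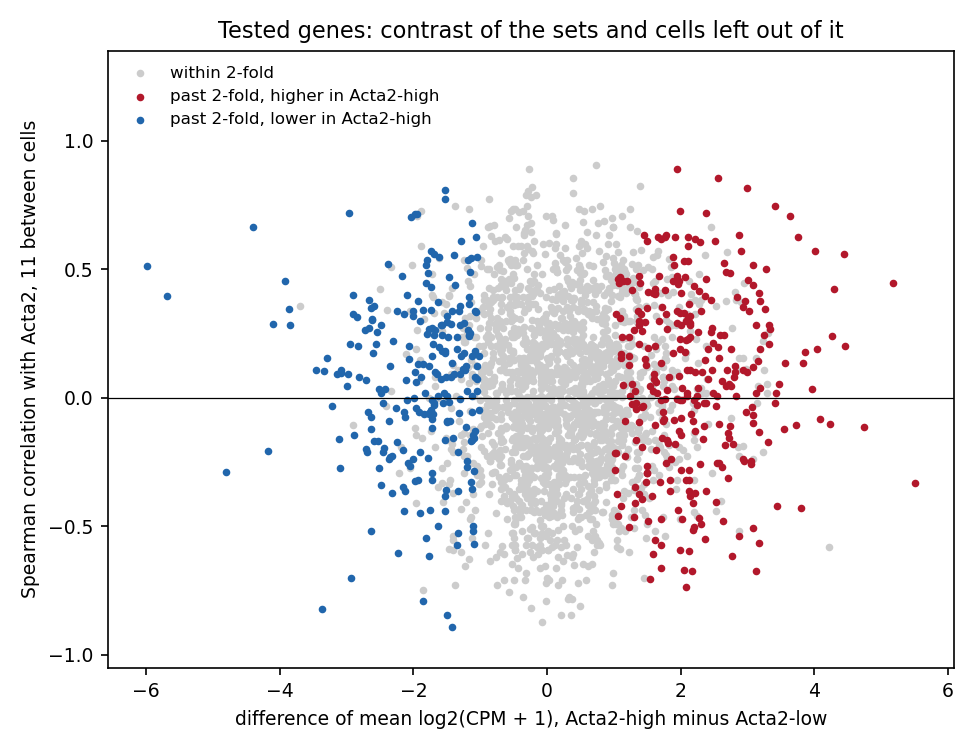
Each point is 1 of the 2562 tested genes: its difference of mean log2(CPM + 1), Acta2-high minus Acta2-low (horizontal), against its Spearman correlation with Acta2 over the 11 cells between (vertical), in red or blue where higher or lower past 2-fold. Both coloured clouds lie on both sides of 0 on the vertical axis, with medians of 0.08 and 0.09.

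Emb and Alcam, which encode embigin and CD166, did not separate the sets. Emb had 0, 26.5 and 298 CPM in Acta2-high and 0, 0 and 453 CPM in Acta2-low cells, with a read in 5 of 6 and 3 of 7 cells and a pooled ratio of 0.873-fold. Alcam had 0, 213 and 786 CPM against 0, 121.7 and 1257 CPM.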

How the data were processed

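One table of 3613 genes was used. What was deposited is a signal scaled like RPKM: reads × 1e+09, divided by the cell's library reads and by a whole number per gene, a form read from the values. The submitters' processing notes name mm10 and Seurat. For the aligner, counter and annotation the sources used here give nothing. All 99807 values above 0 became whole reads at a tolerance of 0.0001, and CPM was computed from those, whereas the design had assumed a table of reads. Cells were captured on a Fluidigm C1 and read after SMART-Seq and Nextera XT preparation. No doublet caller was run and no cell was removed. The titles call the cells replicates but name no culture or animal, so no test was made. Alternatives were other scalings, filters, pseudocounts (10 in place of 1), thinning to 270000 reads, the deposited signal and each cell left out. The code for read recovery and for the calls was run on simulated cells with planted differences. That run checked the code and cannot show how many unchanged genes pass 2-fold in the real cells.

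Members and lists were chosen with earlier results of these data known. Named genes were Acta2, Actb, Emb and Alcam, the listed contractile genes, the 12 highest and 12 lowest differences past 2-fold (predicted Gm or Rik genes passed over), the 3 largest of each list with at least 3 tested members, and the 8 genes most and 4 least like Acta2 over 24 cells. Other genes of the matrix, adhesion, lipid and mesenchymal lists were named after their values were seen, and some items are not reported here. Python 3.11.15, numpy 2.4.6, pandas 2.3.3 and scipy 1.17.1 were used, with GENCODE M21 and RefSeq for positions and promoters. Since no molecular identifiers were used, reads do not stand for independent molecules.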

Additional observations from a re-analysis of the deposited data

Results flagged for a closer look

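Acta2-high cell 21 lay far below the other 5 cells of its set in a pair of metabolic lists, as measured by the gap to its nearest neighbour over the range of the set. Its mean log2(CPM + 1) over glycolysis and hypoxia genes was 3.74, with the other 5 cells between 7.37 and 7.80. Over respiratory chain genes it was 4.88, with the others between 6.58 and 7.21. The same cell had the smallest share of reads in listed genes, 58.9%, and 2092 genes with a read. In all 42 sets of values were checked, and chance alone flags about 1 in 20.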

How the results depend on the processing

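No paired analysis was possible because the cell numbers are names and no test was made. The count of higher genes, 310, fell to 176 and that of lower genes, 240, to 147 where 10 or more of the 13 cells had to have a read, by construction over fewer genes (1960). With no minimum, 461 genes were higher and 369 lower. Leaving out each cell in turn gave 273 to 366 higher and 219 to 272 lower genes. Thinning to 270000 reads gave 315 and 241, of which 260 and 200 were shared. Genes with no overlap numbered 2 to 8 (higher) and 0 to 3 (lower) with a cell left out. The higher ones were 1 under the stricter filter, 1 after thinning and 9 without cells 21 and 14, an alternative chosen after seeing the data, and the lower ones 1 with median-of-ratios scaling, 2 after thinning and 3 without those cells. The macrophage list's median, −0.47 over 3 genes, was −2.60 and −2.66 with the 1 gene left under the stricter filter and after thinning. The median of all tested genes was 0.39 on deposited values and 0.08 to 0.40 with a cell left out. Of 55 named genes past 2-fold, 24 passed under all 21 alternatives and 0 reversed. Rab35, Ice1 and Mynn had a read in only 7 cells, so that leaving out 1 of these ended their call by construction.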

Other observations

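Srxn1 and Hmox1 prompted a list of 24 genes linked in textbooks to the oxidative stress factor NRF2, drawn up after the values were seen, so its counts are a description and support nothing. Of 18 tested members, 6 were lower in Acta2-high cells (Srxn1, Hmox1, Sqstm1, Gsr, Prdx1 and Pgd) and 0 higher, beside backgrounds of 9.37% and 12.1%, with a median difference of −0.78. Over the alternatives that median stayed between −1.08 and −0.58. Prdx1, an abundant peroxiredoxin, had 1050, 2049 and 4135 CPM as its lowest, median and highest values in Acta2-low and 265, 900 and 1465 CPM in Acta2-high cells, and its call held under all 21 alternatives. Sqstm1, the autophagy receptor p62, was at 192 CPM or more in every Acta2-low cell and at or below 114 CPM in 5 of 6 Acta2-high cells, with cell 21 at 774 CPM, and its call ended without Acta2-low cell 2. That of Pgd ended without Acta2-high cell 21 or Acta2-low cell 9, 1 or 2 and after thinning. Members with no call included Txnrd1 (1.83), Gclm (0.38), Txn1 (0.01) and the ferritin genes Fth1 (−0.69) and Ftl1 (−0.76). Over the 11 cells between, the median Spearman correlation of the tested members with Acta2 was −0.03.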
